A study of Mus musculus with 29 samples.

Results

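The 8 genes described here encode receptors for extracellular nucleotides in microglia and their close relatives: the G-protein-coupled receptors P2ry12, P2ry13, P2ry14 and P2ry6, the related receptors Gpr171 and Gpr34, and the ion channels P2rx4 and P2rx7. They were taken by name as 8 of 21938 protein-coding genes of GENCODE vM21. Every peak region of 25 CUT&RUN lists that overlapped a gene body extended by 20 kb on each side was kept, and each distinct region was counted once, which gave 690 of 1008665 regions. The 8 windows overlap and form 5 stretches of DNA (build mm10, that is GRCm38), so regions near neighbouring genes are shared between them.

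CUT&RUN releases DNA around a chromatin protein with an antibody-guided nuclease. IRF8, a transcription factor of the interferon regulatory factor family, was read through an antibody against GFP in female mice of the IRF8-EGFP strain, and its profile is therefore that of the fusion protein. These libraries came from microglia of adult mice (3 libraries), of mice at postnatal days 9 (P9, 4) and 14 (P14, 3), and from peritoneal macrophages (3). PU.1, an ETS factor of myeloid cells, was read with its own antibody, as were H3K27ac and H3K4me1, histone marks of active and of active or primed enhancers, in adult microglia of female mice labelled WT or IRF8KO (knockout), with 2 libraries per target and genotype. No treatment is named for any group. The protocol, which is the same text for every library, gives an age of 3 months and names WT and IRF8KO brains, and no other age is given for the adult IRF8-EGFP mice. The labels state that 4 of 7 P9 and 2 of 3 KO H3K27ac libraries were provided, without saying how they were picked. The brain cells for transcription factors were crosslinked, and 4 IgG libraries enter only as controls of the peak calls. The titles of the macrophage libraries were followed, although their source label names microglia. Nothing in the labels says that replicates are separate animals, so the p-values below measure only the spread between these libraries, which may be technical. In sorted cell populations, a region open in fewer cells and a weaker region in each cell cannot be told apart.

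Libraries held 7.25 to 24.7 M (mega) fragments, and the lists held 1168 to 2068 distinct regions at P9, 7931 to 19238 at P14, 17048 to 29661 in adult microglia and 9787 to 23162 in macrophages. Each stage and the macrophages had their own IgG control, so stage, tissue and control cannot be told apart. KO H3K27ac replicate 2 was the shallowest library of its mark, with 8.57 M fragments and 31524 regions against 72354 to 88400 in the other 3. The label of microglia was checked at gene starts: both WT H3K27ac libraries had a region within 1 kb of the start at 5 of 6 microglial markers and at 3 of 13 markers of neurons, glia, lymphocytes and endothelium (Mog, Mbp and Pecam1), and both KO libraries at 2 of 6 and 0 of 13. The 2 markers of peritoneal macrophages, Gata6 and Icam2, had an IRF8 region at the start in 2 and 3 of 3 macrophage libraries, and in 1 and 0 of 3 adult microglia libraries.

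Microglia sense nucleotides released by active or damaged cells. P2Y12 and P2Y13 are inhibitory G-protein-coupled receptors for ADP, and P2Y12 directs the extension of microglial processes and is widely used as a marker of homeostatic microglia. P2Y6 responds to UDP and promotes phagocytosis, P2Y14 responds to UDP-glucose, and GPR34 responds to lysophosphatidylserine. P2X4 and P2X7 are cation channels gated by ATP, and P2X7 is known as a trigger of inflammasome activation. In myeloid cells IRF8 binds DNA largely together with PU.1, often at a composite site that joins an ETS half-site and an IRF half-site.

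IRF8 and PU.1 occupied 24 elements in the windows, each a merged consensus region of at least 1 group, and they are numbered E1 to E24 by position. Overlapping peaks of a group were merged, and the result is called a consensus region where 2 or more of its libraries contribute. The sequences below are the 201 bases around the strongest summit of 7 elements (GRCm38.p6 from RefSeq, plus strand, 5′ to 3′), chosen because the comparisons below turn on them. E8 and E9 lie 3.4 kb apart in an intron of P2ry12, and E16 and E17 lie 6.3 kb apart in an intron of P2ry6. In each pair the first had no PU.1 region in the knockout and the second kept it. E4 is the third element with a PU.1 region in both WT libraries and in neither knockout library, E24 near Gpr34 was shared by every IRF8 group, and E14 was strongest in macrophages. Capitals mark matches to 3 short motifs searched on both strands: GGAANNGAA (a composite ETS-IRF form), GAAANNGAA (interferon-response-like) and GGAAGT (an ETS core).
E4, chr3:59202247-59202447: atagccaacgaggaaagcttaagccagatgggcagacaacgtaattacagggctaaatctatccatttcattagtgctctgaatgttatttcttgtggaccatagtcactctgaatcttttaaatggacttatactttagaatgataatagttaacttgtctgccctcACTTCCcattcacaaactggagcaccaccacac
E8, chr3:59225636-59225836: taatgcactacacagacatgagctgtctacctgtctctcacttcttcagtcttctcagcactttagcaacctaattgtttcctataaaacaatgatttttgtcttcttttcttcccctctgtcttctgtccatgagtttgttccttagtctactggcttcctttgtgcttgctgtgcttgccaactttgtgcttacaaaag
E9, chr3:59229006-59229206: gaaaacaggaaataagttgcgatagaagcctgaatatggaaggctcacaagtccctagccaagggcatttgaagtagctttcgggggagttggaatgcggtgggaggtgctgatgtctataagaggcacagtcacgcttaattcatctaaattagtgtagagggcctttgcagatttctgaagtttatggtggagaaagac
E14, chr5:122702464-122702664: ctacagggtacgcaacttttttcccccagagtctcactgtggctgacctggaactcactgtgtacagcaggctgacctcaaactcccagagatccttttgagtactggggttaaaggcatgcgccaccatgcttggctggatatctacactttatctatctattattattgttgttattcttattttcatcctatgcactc
E16, chr7:100944203-100944403: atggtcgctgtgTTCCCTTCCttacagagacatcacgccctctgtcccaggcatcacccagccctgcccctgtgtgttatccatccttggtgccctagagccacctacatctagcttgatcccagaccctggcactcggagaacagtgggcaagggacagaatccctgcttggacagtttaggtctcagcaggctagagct
E17, chr7:100950528-100950728: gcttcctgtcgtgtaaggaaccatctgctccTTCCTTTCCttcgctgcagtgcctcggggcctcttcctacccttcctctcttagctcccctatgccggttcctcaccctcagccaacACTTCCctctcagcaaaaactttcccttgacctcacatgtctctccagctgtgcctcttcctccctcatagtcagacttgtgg
E24, chrX:13654991-13655191: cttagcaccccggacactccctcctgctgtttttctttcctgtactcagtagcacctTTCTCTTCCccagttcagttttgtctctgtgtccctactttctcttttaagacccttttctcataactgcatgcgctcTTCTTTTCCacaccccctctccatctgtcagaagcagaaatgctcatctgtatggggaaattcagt
Of the 24 elements, 4 held the composite form near the summit (E1, E16, E17 and E24), 2 the interferon-response-like form, 4 the ETS core and 16 held none of the 3. The letters of E8, E9 and E14 thus hold no match in this window, which says nothing about the factors there. Among adult IRF8 consensus regions, 3 of 22 in the windows held the composite form, against 7.23% of all 16934, 0 of 22 the interferon-response-like form, against 6.88%, and 2 of 22 the ETS core, against 18.5%. Among WT PU.1 consensus regions the counts were 2 of 16 (8.75% of all), 0 of 16 (7.45%) and 5 of 16 (25.8%). Over whole regions, which differ in length, the interferon-response-like form was in 13 of the 22, against 38.7% of all, and the ETS core in 19, against 73.3%, so both comparisons with all IRF8 regions turned. In E14, 81.1% of the letters are soft-masked as repeats in the genome file, whereas over all macrophage consensus regions the median was 9.5% and 6.1% of regions were masked over more than 50% of this width.

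**Figure D1:**
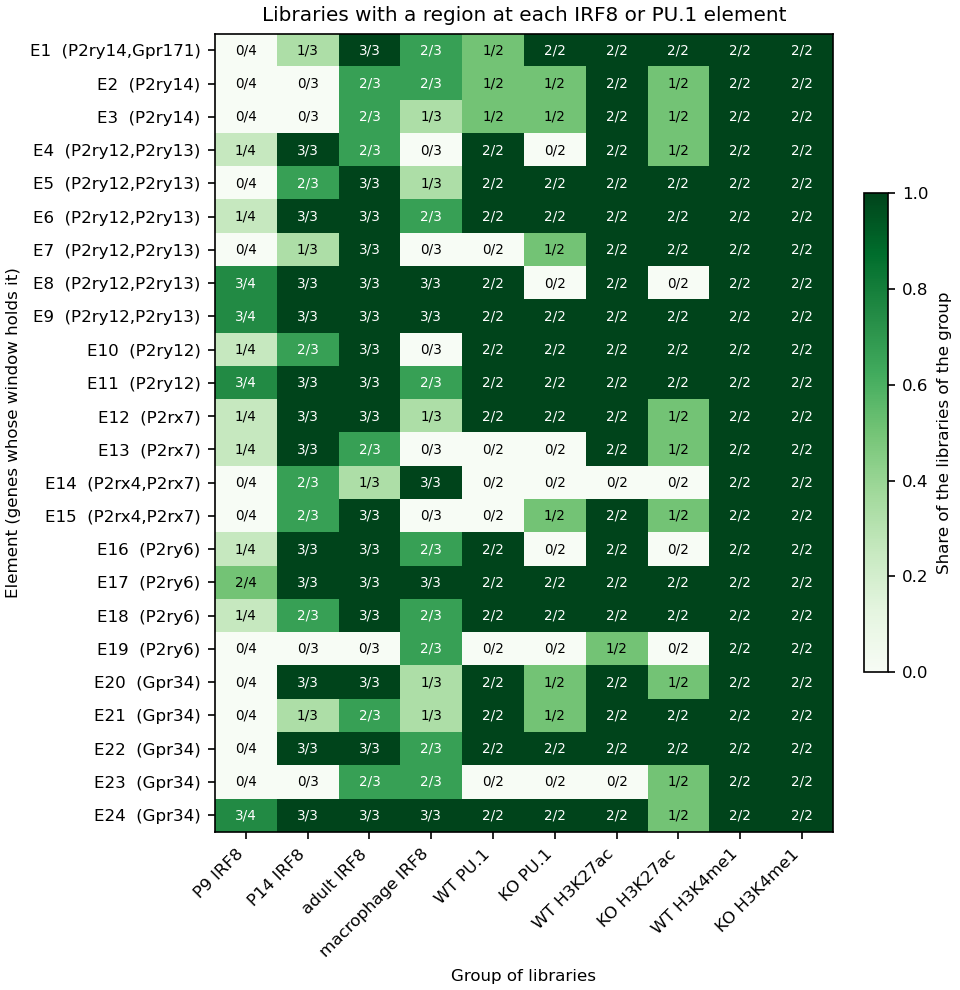
Number of libraries with an overlapping region (numerator) of all libraries of the group (denominator) at each of the 24 elements, with colour for the share. E8, E9, E17 and E24 have IRF8 regions in every adult and macrophage library, while E4, E8 and E16 have PU.1 regions in 2 of 2 WT and 0 of 2 KO libraries.

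The first comparison asked how IRF8 occupancy at these genes changes from P9 to adulthood. The P2ry12 window held 2, 4, 6 and 3 IRF8 regions in the 4 P9 libraries, 9, 10 and 8 at P14, and 11, 16 and 9 in adult microglia. Every P14 and adult value lay above every P9 value, while P14 and adult values overlapped. The number of regions rose with stage at 7 of 8 genes (Jonckheere-Terpstra trend, exact two-sided permutation test over 4200 assignments, Benjamini-Hochberg adjusted over 16449 genes), and P2rx7 did not pass. The same call was made for 46.0% of all genes tested, and 0 genes were called in the falling direction, with 0 genes falling at an unadjusted exact permutation p under 0.05. For P2ry12 the statistic was 31.5 of at most 33 (exact permutation, adjusted p = 0.0183).

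P2ry13, whose window shares E4 to E9 with that of P2ry12, held 2, 2, 3 and 1 regions at P9, 5, 8 and 4 at P14 and 7, 9 and 5 in adults (adjusted p = 0.0237 by the same exact permutation test). P2ry14 and Gpr171, which share E1, held no IRF8 region in any P9 library. P2ry14 then held 0, 1 and 0 at P14 and 3, 4 and 2 in adults (exact permutation, adjusted p = 0.0211), and Gpr171 0, 1 and 0 followed by 1, 3 and 2 (adjusted p = 0.0343). Both genes were therefore nearly empty until adulthood, and their P9 and adult values did not overlap. Of all genes, 85% held no IRF8 region in any P9 library and 43.3% none in any P14 library. P2ry6 held 1, 1, 2 and 0 regions, then 4, 5 and 2, then 4, 5 and 5 (exact permutation, adjusted p = 0.0283). Gpr34 held 1, 1, 1 and 0, then 3, 5 and 3, then 5, 8 and 5 (exact permutation, adjusted p = 0.0173). At both, P14 and adult values overlapped, and at Gpr34 no P9 value reached a P14 value.

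Among the channels, P2rx4 held no region at P9, 2, 3 and 0 at P14 and 1, 4 and 2 in adults (exact permutation, adjusted p = 0.0471). That call was lost under 14 of 17 alternatives, with exact permutation adjusted p from 0.0241 to 0.196 over all of them. The calls of the other genes were lost under 9 of 16 for Gpr171, 8 of 17 for P2ry14, 8 of 18 for P2ry13 and for P2ry6, 2 of 18 for P2ry12 and 1 of 18 for Gpr34. The direction turned under 2 further alternatives for P2ry12, P2ry6 and Gpr34 and 1 for P2ry13. P2rx7 held 0, 1, 1 and 0, then 4, 7 and 2, then 3, 6 and 3 (exact permutation, adjusted p = 0.0549), with its highest value at P14. It did pass with covered length, with windows of 50 kb, at a −log10 p of at least 10 and without P14 replicate 2 (exact permutation, adjusted p from 0.0237 to 0.0433). The lists were also longer at P14 and in adults than at P9. Divided by list length, the 8 windows together held 0.240 to 0.599% of all regions at P9, 0.151 to 0.251% at P14 and 0.107 to 0.153% in adult microglia. On that scale 0 of 8 genes were called as rising, against 0.45% of all, and P2ry13 was called as falling (exact permutation, adjusted p = 0.0461), as were 0.584% of all genes, while P2ry12, P2ry6, Gpr34 and P2rx7 turned to the falling direction without passing. P2ry14, Gpr171 and P2rx4 kept the rising direction without passing. With lists cut to equal length 0 of the 5 genes that then had a region were called, as were 0 of all 3893 genes (147 at an unadjusted exact permutation p under 0.05), and P2ry12, P2ry6 and Gpr34 also turned. With windows of 5 kb the count of 7 was 3, against 25.3% of all genes. The count of 7 also depended on single libraries: it was 2 without any 1 of the 4 P9 libraries, where 9.73 to 10.8% of all genes were called, 1 without adult replicate 2 (12.2%) and 4 without adult replicate 3 (32.9%).

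**Figure D2:**
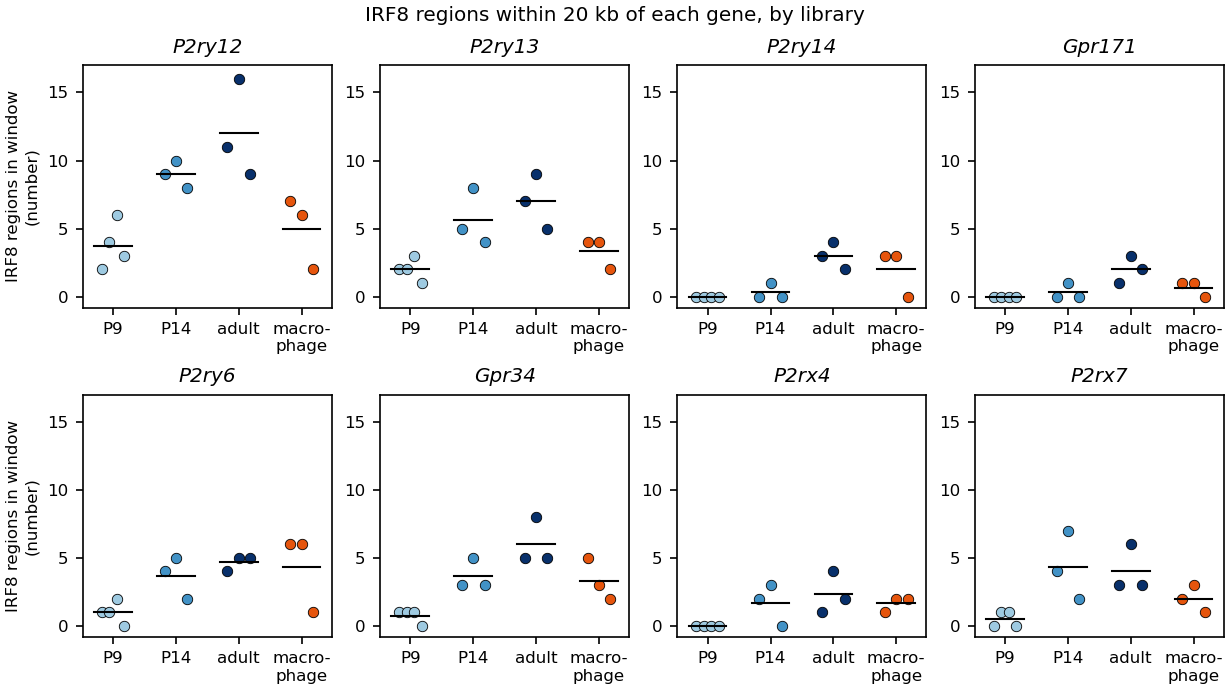
IRF8 regions within 20 kb of each gene (number, y axis) in each library of P9, P14 and adult microglia and peritoneal macrophages (x axis), with a line at the group mean. P2ry12 has the highest numbers, from 2 to 6 at P9 to between 9 and 16 in adults, and P2ry14, Gpr171 and P2rx4 have none at P9.

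**Figure D3:**
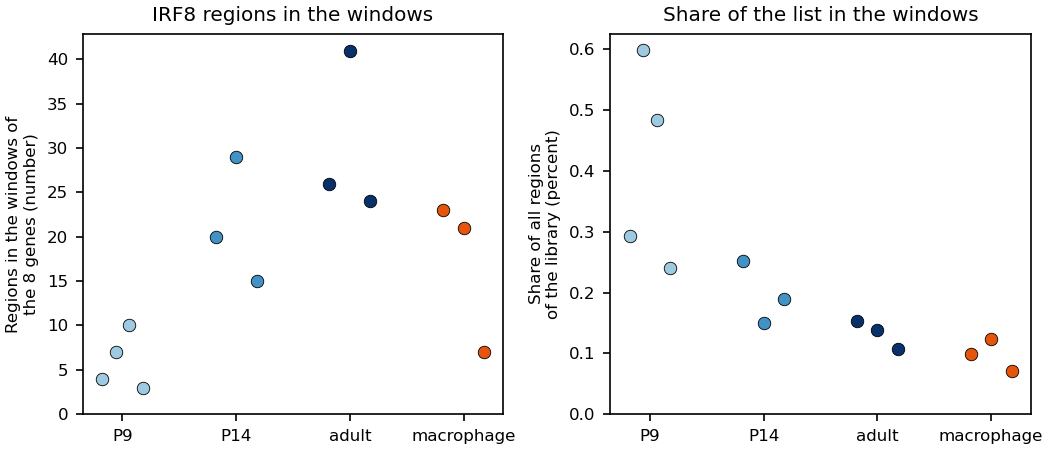
IRF8 regions in the windows of all 8 genes as a number (left) and as a percent of all regions of the library (right), 1 point per library. The number rises from 3 to 10 at P9 to between 24 and 41 in adults, while the share falls from at least 0.240% at P9 to at most 0.153% in adults.

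The consensus regions already present at P9 were few and lay in the windows of P2ry12, P2ry13, P2ry6 and Gpr34. P2ry12 and P2ry13 held a region in 4 of 4 P9 libraries, which 2.27% of all genes did, and 85.0% of genes held none in any. At P9, 5 elements were consensus regions: E8, E9 and E11 at P2ry12 (the first 2 also in the P2ry13 window), E17 in P2ry6 and E24 beyond Gpr34. The same 5 were consensus regions at P14, in adult microglia and in macrophages. The share of all 1374 P9 consensus regions for which this holds was not computed. Of the 22 adult consensus regions in the windows, 10 had no region in any P9 library, against 83.7% of all 16934, and 3 had none at P9 or P14, against 26.5%. At E9, the P2ry12 intron element, the authors' fold over control was 7.17, 5.74 and 7.69 in P9 replicates 1 to 3, with no region in replicate 4, and 18.4, 17.1 and 15.8 in the adult libraries. E11 spans the start of P2ry12 and had regions in 3 of 4 P9 libraries and in every P14 and adult library. The authors' fold is each region's own value within its list and depends on depth and control, so it is given as a description.

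**Figure D4:**
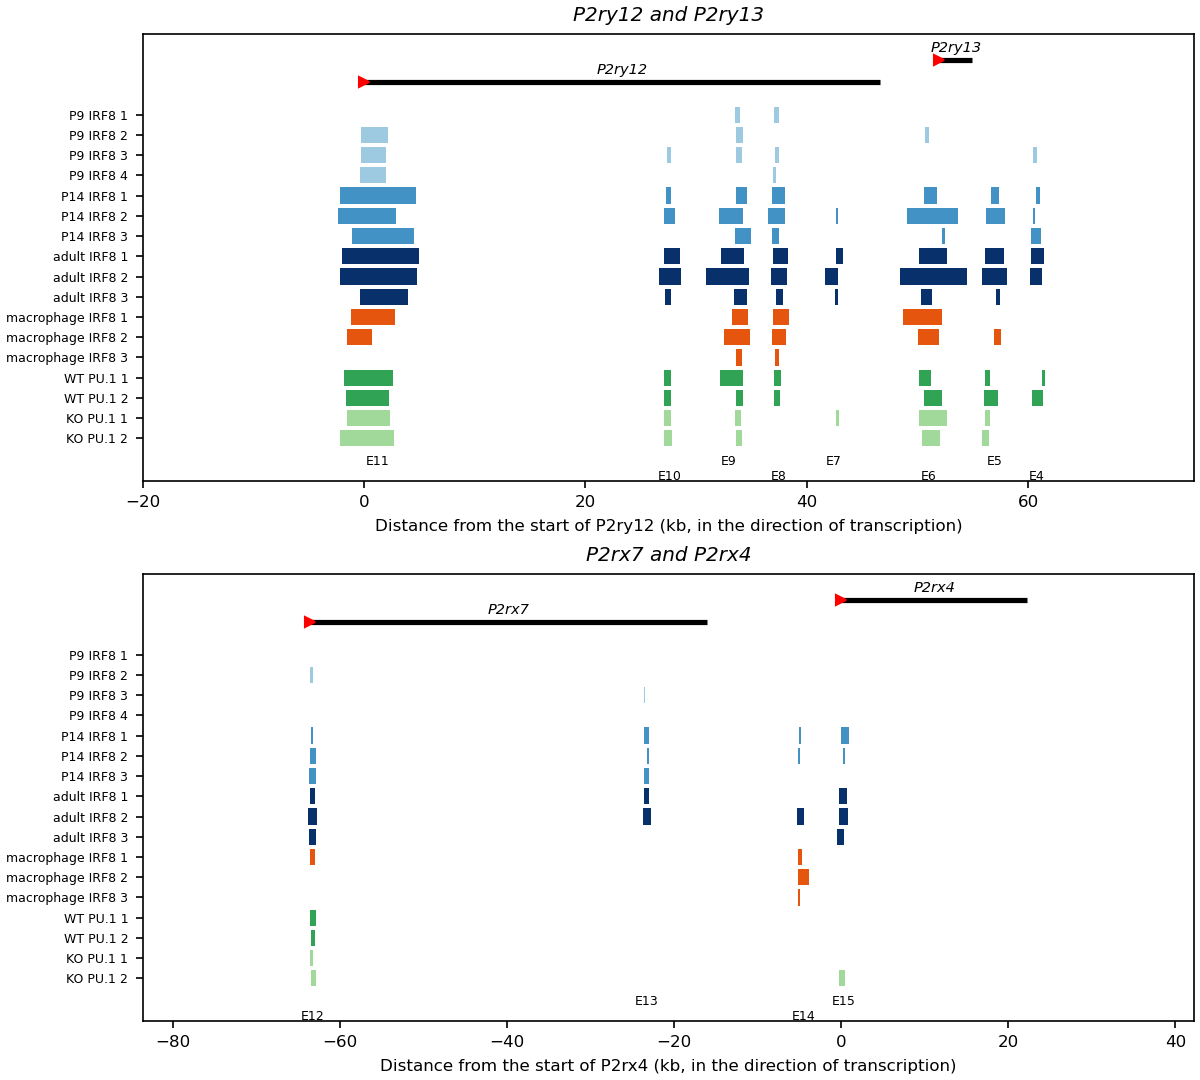
Regions at the elements of P2ry12 and P2ry13 (top) and of P2rx7 and P2rx4 (bottom), by distance from a gene start in kb, 1 row per IRF8 or PU.1 library. Each bar runs from the first to the last region that the library has at the element, black lines are gene bodies and red arrows mark starts and direction. E8 and E4 have no bar in the KO PU.1 rows, E15 has bars in every adult IRF8 row and no macrophage row, and E14 has bars in every macrophage row and, of the adult rows, in replicate 2.

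The second comparison set adult microglia beside peritoneal macrophages. With 3 against 3 libraries the smallest exact two-sided p is 0.1, so no test was made. Of the 22 adult IRF8 consensus regions at these genes, 12 were shared with the macrophage consensus, against 39.5% of all adult consensus regions. Of the 14 macrophage consensus regions, 12 were shared with adult microglia, against 56.3% of all. Within batch 1 the counts were 12 of 23 (40.0% of all) and 12 of 14 (53.5%). Between the single libraries of batch 2 they were 4 of 24 (8.43%) and 4 of 7 (19.3%). Macrophage replicate 3 had the shortest list and held 7 regions in the windows, against 23 and 21 in the other libraries. Without macrophage replicate 1 or replicate 2, 4 of the 22 adult regions were shared (12.2 and 13.1% of all), and 4 of the 5 macrophage regions then left (69.6 and 68.5%).

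Adult consensus regions with no region in any macrophage library numbered 5 of 22, against 39.9% of all: E4, E7 and E10 at P2ry12 and P2ry13, E13 in P2rx7 and E15 at the start of P2rx4. That count was 9 of 22 without macrophage replicate 1 (52.7% of all), and 3 of 16 or 3 of 17 without adult replicate 1 or replicate 2 (35.7 and 31.5%). One of 14 macrophage consensus regions, E19 upstream of P2ry6, had no region in any adult library, against 30.5% of all. At the P2rx4 start, E15 had folds of 6.22, 7.09 and 8.79 in the adult libraries, 7.50 and 5.0 in 2 of 3 P14 libraries, and no region in the macrophage libraries. E14, intergenic and 5.0 kb upstream of that start (chr5:122702328-122703693), had folds of 14.1, 15.6 and 7.09 in the macrophage libraries, 4.58 and 4.70 in P14 replicates 1 and 2 and 4.70 in adult replicate 2. The pair thus had opposite presence in the 3 adult and 3 macrophage libraries except in adult replicate 2, where both were found. E14 had no PU.1 or H3K27ac region in any adult library of either genotype, and its soft-masked letters are given above. Whether repeated sequence plays a part in its fold was not tested.

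Next, the adult IRF8 regions were compared with the WT lists of PU.1 and both marks. Of the 22 adult IRF8 consensus regions at these genes, 15 overlapped a WT PU.1 consensus region, against 27% of all adult IRF8 consensus regions (4579 of 16934). H3K27ac consensus regions overlapped 21 of 22, against 81.8%, and H3K4me1 consensus regions 22 of 22, against 91.3%. With lists of equal length the H3K27ac count was 13 of 21, against 47.6% of all, and at a −log10 p of at least 10 the H3K4me1 count was 0 of 20, against 0.502%. All 15 elements with a WT PU.1 consensus region were also adult IRF8 consensus regions. The share of all 5358 WT PU.1 consensus regions that overlap adult IRF8 was not computed, so this count is a description only. The window of P2ry12 held 8 WT PU.1 consensus regions, P2ry13 5, Gpr34 4, P2ry6 3 and P2rx7 1, while P2ry14, Gpr171 and P2rx4 held none. P2rx4 had no PU.1 region in either WT library. Requiring that a PU.1 region cover 50% of the IRF8 region lowered the count from 15 to 6, and the share of all to 13.8%.

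The last comparison asked what PU.1 and the marks looked like in the absence of IRF8. A WT consensus region was called lost when neither KO library had an overlapping region, and a KO consensus region was called gained when neither WT library had one. Of 16 WT PU.1 consensus regions at these genes 3 were lost, against 25.1% of all 5358, and of 13 KO regions 0 were gained, against 16.5%. For H3K27ac 5 of 31 were lost, against 34.0%, and 0 of 17 gained, against 10.9%. The H3K27ac lost count was 19 of 31 both when an overlap had to cover 50% of the region (71.2% of all) and when absence from the KO consensus sufficed (78.4%). For H3K4me1 0 of 21 were lost, against 13.0%, and 3 of 30 gained, against 23.8%. By the same rules, with the other genotype as reference, PU.1 was lost at 5 of 16 (39.0 and 48.0% of all) and H3K4me1 gained at 11 and 9 of 30 (45.8 and 44.4%). Both libraries had H3K27ac at the start of 5 of 6 microglial markers in WT and of 2 of 6 in KO, and the part of this difference in the counts was not tested. With 2 against 2 libraries no exact two-sided p can go below 0.33, so these counts carry no test. The members' shares lost or gained were below the shares over all regions in each of the 6 counts. Under the alternatives tried this turned in 4 cases: H3K27ac lost (8 of 22, 35.4% of all) and gained (3 of 15, 13.5%) with lists of equal length, H3K27ac gained with a 50% overlap (4 of 17, 19.8%) and PU.1 lost at a −log10 p of at least 10 (4 of 13, 28.1%). Counted by gene, a lost PU.1 region lay in the windows of 3 of the 8, against 6.41% of all genes, a lost H3K27ac region at 4 (35.2%) and a gained H3K4me1 region at 3 (42%). P2ry12 and P2ry13 share regions, and only a gene with a WT consensus region in its window can lose one. A WT PU.1 consensus region lay at 5 of the 8, against 22.4% of all genes, and a WT H3K27ac one at 8, against 61.7%. The counts by gene are therefore not adjusted for the number of regions held. A gained PU.1, gained H3K27ac or lost H3K4me1 region lay at 0 of the 8, against 4.03, 4.71 and 15.3%.

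The 3 lost PU.1 regions lay in the P2ry12 and P2ry13 windows and in P2ry6. The region at E8, in an intron of P2ry12, had folds of 10.6 and 9.14 in the WT libraries and no region in KO. The neighbouring E9 had folds of 12.9 and 8.84 in WT and 6.59 and 6.54 in KO, so PU.1 was found there in every library. The region at E4, in the windows of P2ry12 and P2ry13, had folds of 8.07 and 6.90 in WT and no region in KO. The region at E16, in an intron of P2ry6, had folds of 6.92 and 3.79 in WT and no region in KO, and it lay at percentile 22.8 of the WT replicate 2 list by −log10 p. E17, also in P2ry6, had 8.02 and 8.98 in WT and 11.7 and 6.62 in KO. The IRF8 element with the highest KO fold of PU.1 was E5, next to P2ry13, with 6.83 and 10.7 in WT and 8.96 and 18.4 in KO. At Gpr34, 2 elements (E20 and E21) had a PU.1 region in both WT libraries and only in KO replicate 2, with folds of 4.03 and 5.29. Within same-numbered libraries, which share an IgG control and q-value threshold, 10 of 23 regions of WT replicate 1 had none in KO replicate 1, against 66.4% of all, and 6 of 20 of WT replicate 2 had none in KO replicate 2, against 57.5%. In the other direction the counts were 5 of 17 (53.6% of all) and 4 of 18 (67.7%). The lost count of 3 of 16 was 5 of 20 without WT replicate 1 (47.7% of all), 7 of 23 without WT replicate 2 (58.7%) and 5 of 16 without KO replicate 2 (35.6%). The gained count of 0 of 13 was 1 of 13 without either WT library (31% and 24.3%), 2 of 18 without KO replicate 1 (58.2%) and 3 of 17 without KO replicate 2 (47.3%).

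The 5 lost H3K27ac regions were spread over 4 genes. P2ry6 had 2 in its intron, chr7:100943397-100944900, which covers part of E16 (folds of 3.95 and 7.16 in WT), and chr7:100946310-100947046 (5.11 and 3.78). P2ry12 had 1 at 6.3 kb upstream of its start, chr3:59267945-59270308 (4.01 and 6.54). P2rx7 had 1 in an intron, chr5:122652820-122653818 (6.17 and 5.23), and Gpr34 1 in the neighbouring Cask, chrX:13621123-13622067 (3.70 and 5.23). The KO libraries were unequal: 7 of the 31 WT regions had no region in KO replicate 1, against 37.3% of all, and 18 of 31 had none in KO replicate 2, against 72.9%. Over the 5 stretches H3K27ac covered 108 and 103 kb in WT and 84.8 and 21.7 kb in KO, where the lower value is that of the shallow replicate 2. Per megabase of DNA covered by the whole list, the stretches held 1229 and 1333 bp in WT and 1292 and 1279 bp in KO, so the KO values lay within the WT range. When 1 library of a genotype is left out, the other library's whole list takes the place of the consensus, so more regions are tested. Without WT replicate 1 the lost count was 23 of 53 (59.5% of all), without WT replicate 2 19 of 59 (54.5%) and without KO replicate 1 18 of 31 (72.9%). The gained count of 0 of 17 was 1 of 17 without WT replicate 1 (17.6% of all), 5 of 34 without KO replicate 1 (55.5%) and 27 of 71 without KO replicate 2 (55.9%).

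**Figure D5:**
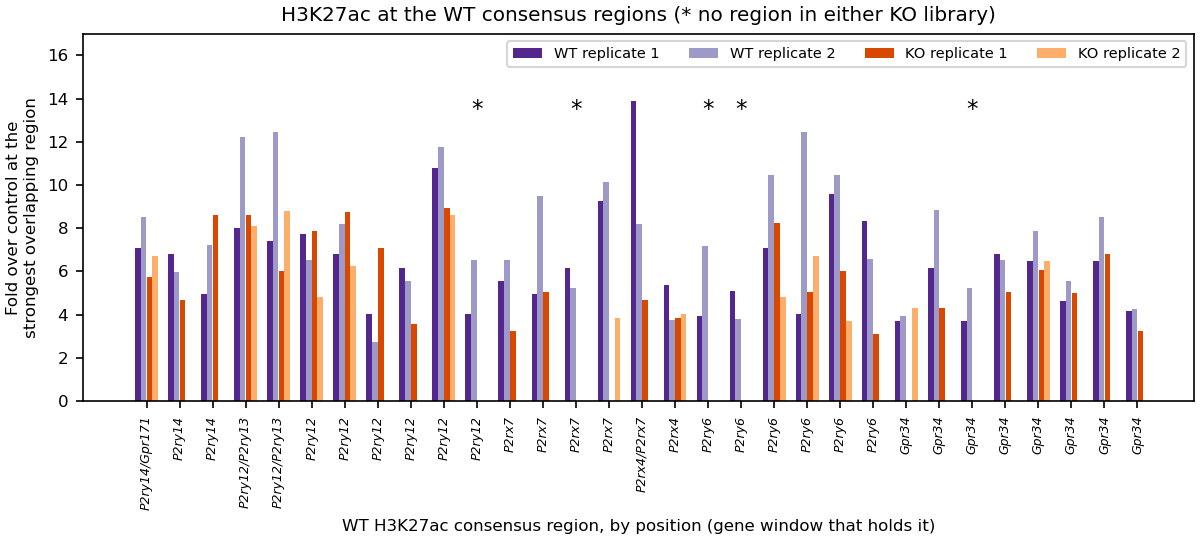
Fold over control of H3K27ac (authors' value of the strongest overlapping region, y axis) at the 31 WT consensus regions in the windows, ordered by position and named by window, with 1 bar per library and no bar where a library has no region. Stars mark the 5 regions with no region in either KO library, 2 of them in P2ry6.

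H3K27ac regions are wide and can span several elements, so the mark was also read at each WT PU.1 consensus region, a reading chosen after the values were seen. All 16 had H3K27ac in both WT libraries, as had 4837 of all 5358 WT PU.1 consensus regions. Of the 16, 4 had it in neither KO library, against 19.0% of the 4837. They were 2 of the 3 lost PU.1 regions, E8 and E16, against 38.7% of all lost PU.1 regions, and 2 of the 13 kept ones, against 12.7% of all kept ones. The latter are PU.1 regions inside E18 of P2ry6 and E22 of Gpr34, and elsewhere in both elements H3K27ac was found in 2 of 2 KO libraries. The third lost region, E4, had H3K27ac in KO replicate 1. Without KO replicate 1 the count of 4 became 9 of 16, against 55.4% of all. At E8 and E16, then, PU.1 and H3K27ac were both found in 2 of 2 WT and 0 of 2 KO libraries. H3K4me1 regions overlapped both elements in every library of both genotypes. The H3K4me1 consensus regions there were broad, 67716 bp in WT and 66478 bp in KO at E8, and 28552 and 25940 bp at E16. That overlap therefore does not show whether H3K4me1 was kept at the elements themselves.

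H3K4me1 regions overlapped all 24 elements, by at least 1 bp, in every library. Of the 3 gained regions, 2 lay in introns of P2rx7, chr5:122657363-122659950 (folds of 2.44 and 2.01 in KO) and chr5:122678947-122680743 (2.95 and 2.07). None of the 3 overlapped an IRF8 region of any library, and the share of all 14754 gained H3K4me1 regions without IRF8 was not computed. The KO lists of this mark were longer in replicate 2, and with lists of equal length 0 of 25 were gained, against 17.3% of all. The count of 3 of 30 was 8 of 30 without WT replicate 1 (35.9% of all), 18 of 56 without KO replicate 1 (56.0%) and 7 of 38 without KO replicate 2 (41.7%). The lost count of 0 of 21 was 4 of 33 without WT replicate 1 (44.1%) and 1 without any 1 of the other libraries, of 21 or 38 (19.0 to 33.0%).

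At the gene starts (within 1 kb), P2ry12, P2ry13 and P2rx7 had IRF8 in 3 of 3 adult libraries and PU.1 and H3K27ac in every WT and KO library. P2rx4 had adult IRF8 in 3 of 3 libraries, H3K27ac in 2 WT and 1 KO libraries and PU.1 only in 1 KO library. Gpr34 had IRF8 in 2 of 3 adult libraries, PU.1 in 2 WT and 1 KO libraries and H3K27ac in 2 WT and 2 KO libraries. P2ry14 had IRF8 in 2 of 3 adult libraries, H3K27ac in 2 WT libraries and 1 KO library, and PU.1 in 1 library of each genotype. P2ry6 and Gpr171 had no IRF8 or PU.1 region at the annotated start in any library, and P2ry6 had no H3K27ac region there either. The strongest summits of the P2ry6 elements lay in its intron or upstream, while a KO PU.1 consensus region inside E18 was centred on an untranslated exon of P2ry6.

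Other genes of purine signalling, a list of 24 that holds the remaining P2X, P2Y and adenosine receptors, ectonucleotidases, adenosine-handling enzymes, a pannexin and nucleoside transporters, were read the same way. Adult IRF8 consensus regions lay in the windows of 15 of 24 (50.6% of all genes), P9 ones of 2 (7%), macrophage ones of 14 (39.9%) and WT PU.1 ones of 8 (22.4%), against 8, 4, 8 and 5 of the 8 genes above. Of 21 with an IRF8 region, 11 were called as rising over the stages, against the 46.0% of all genes given above. The highest adult numbers were at Adora3 (12, 11 and 9 regions), an adenosine receptor gene, and Entpd1 (11, 13 and 9), which encodes the ATP-degrading enzyme CD39, close to the 11, 16 and 9 of P2ry12. In the knockout, 2 of the 24 had a lost PU.1 region, against 6.41% of all genes, and 1 a gained one (4.03%). A lost H3K27ac region lay at 13 (35.2%) and a gained one at 0 (4.71%), and a lost H3K4me1 region at 5 (15.3%) and a gained one at 12 (42%).

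The genes most like P2ry12 across the 25 libraries were found from the percentile, within each list, of the strongest region in the window. Outside its own neighbourhood these were Gm20388, Rb1, Tlr4, Enox1 and Tbc1d5, with mean absolute differences of 3.66 to 3.99 percentile points, where the median over 21907 genes was 61.0. P2ry13 differed by 1.27 points, but shares regions with P2ry12. P2ry6 and Gpr34 each differed by 13.6 points, P2rx7 by 21.1, P2ry14 by 38.4, P2rx4 by 40.4 and Gpr171 by 42.7. The measure was not adjusted for the length of the window.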

How the data were processed

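Peaks were called by the authors for each library with MACS2 2.2.7.1 (transcription factors) or 2.2.6 (marks), per the file headers, at a q-value of 0.01 (0.05 for PU.1 replicate 2 of both genotypes, which also used another IgG control), or, for H3K4me1, as broad regions with a minimum length of 1000 bp and a p-value of 0.01. Duplicates were kept and the larger of library and control was scaled down. Each deposited peak has a pileup (coverage signal), a −log10 p and q and a fold over control, per the file headers. The H3K4me1 q column was not used. The submitters' processing notes name mm10, bcl2fastq, Trim Galore, Bowtie2, deepTools and MACS2, and no peak exceeds its GRCm38.p6 chromosome.

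Entries with the same position were counted once. An overlap needed 1 bp, and a consensus region 2 libraries of a group. Genes came from GENCODE vM21. All 8 members, every IRF8 or PU.1 element in their windows, the list of purine genes as counts and the 5 genes most like P2ry12 were named by rule. The members, lists and motifs were chosen with earlier results of these data known. The position of 1 gained H3K4me1 region is not reported here. Adora3 and Entpd1 were singled out after their values were seen. The trend test, exact over 4200 assignments, was run on simulated counts. In these, unchanged genes had the same mean in every library, so the differences in list length between the stages were not simulated. Alternatives changed the window (5 or 50 kb), the −log10 p minimum (10), list length, the overlap, the consensus rule, the motif window and each library in turn. Analyses used Python 3.11.15, numpy 2.4.6 and pandas 2.3.3.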

Additional observations from a re-analysis of the deposited data

Results flagged for a closer look

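The number of IRF8 regions in the Gpr34 window was 0 in P9 replicate 4 and 1 in each of the other 3 P9 libraries, so that this library stood apart by the whole range of the group. It was 1 of 16 P9 values screened, and the step is a single region. Chance sets apart about 1 in 20 groups of continuous values, a rate that does not hold for small counts with ties.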

How the results depend on the processing

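The number of genes called as rising with stage, 7, was 0 with lists of equal length (0 of the 5 genes with a region at an unadjusted p under 0.05, and 147 of all in either direction), 0 as a share of the list (2 rising and 2 falling at an unadjusted p under 0.05), 3 with windows of 5 kb (25.3% of all genes) and 1 to 8 when 1 library was left out. With the replicate block (replicate numbers 1 to 3) it was 0, where 0 of 16441 genes in all were called and the smallest adjusted p was 0.10, and 5 of the 8 genes had an unadjusted exact permutation p under 0.05. The labels do not say whether replicate numbers pair these libraries. Same-numbered libraries of different stages correlated between -0.05 and 0.22 in their deviations, with 2 of 9 pairs above 0.1, both of P14 with adult. Low correlations of such sparse counts cannot exclude a pairing. As a share of the list the statistic turned to 2.0 for P2ry12, 0.0 for P2ry13, 6.0 for P2ry6, 8.0 for Gpr34 and 13.0 for P2rx7, of at most 33, and with lists of equal length to 12.5, 15 and 8.0 for P2ry12, P2ry6 and Gpr34. Covered length gave 8 genes (50.7% of all genes called), windows of 50 kb 8 (62.5%), −log10 p of at least 10 gave 5 (16.8%) and no filter 6 (26.8%).

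The genotype and tissue results come from no test and have no blocked fit. Same-numbered PU.1 libraries share a control and q-value, and this pairing, read after seeing the data in place of the consensus, gave 10 regions of WT absent from KO and 5 the reverse for replicate 1, and 6 and 4 for replicate 2. Among genotype counts, absence from the other genotype's consensus in place of absence from both libraries gave 5 PU.1 regions lost (48.0% of all) and 2 gained (39.1%), 19 H3K27ac lost (78.4%) and 3 gained (19.7%), and 2 H3K4me1 lost (30.3%) and 9 gained (44.4%), of the same regions as before. An overlap of at least 50% gave 5 and 1 (39.0 and 32.5% of all), 19 and 4 (71.2 and 19.8%), and 2 and 11 (27.4 and 45.8%). Lists of equal length gave 8 of 22 H3K27ac regions lost (35.4% of all), 3 of 15 gained (13.5%) and 0 of 25 H3K4me1 gained (17.3%). At −log10 p of at least 10, 8 of 18 H3K27ac regions were lost (50.7% of all). Windows of 5 kb gave 3 of 24 H3K27ac lost (34% of all), and windows of 50 kb 11 of 42 H3K27ac lost (34%) and 6 of 43 H3K4me1 gained (23.8%). Leaving out 1 library gave 3 to 7 PU.1 lost and 1 to 3 gained, 7 to 23 H3K27ac lost and 0 to 27 gained, and 1 to 4 H3K4me1 lost and 4 to 18 gained, with the numbers tested given beside the counts above. H3K4me1 kept no region in the windows at −log10 p of at least 10, so that alternative gave no genotype value.

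Adult regions shared with macrophages, 12 of 22, were 6 of 20 at −log10 p of at least 10 (28.8% of all), 4 of 16 with a peak required in every library (17.4%), 7 of 22 with 50% overlap (29.9%) and 4 to 12 without 1 library. Macrophage regions shared with adult, 12 of 14, were 6 of 7 (55% of all), 4 of 5 (54.7%), and 4 to 12, of 5 to 14, under the first, second and last of these. Adult regions with WT PU.1, 15, were 6 with 50% overlap, those with H3K27ac, 21 of 22, were 13 of 21 with lists of equal length (47.6% of all), and those with H3K4me1, 22, were 0 at −log10 p of at least 10, where 60 H3K4me1 consensus regions were left in the genome. Adult regions with no macrophage region were 3 to 9 without 1 library, and PU.1 regions with H3K27ac in WT alone 4 to 9, both added after seeing the data. Motif counts near the summit of 3, 0 and 2 (IRF8) and 2, 0 and 5 (PU.1) became 13, 13 and 19 (43, 38.7 and 73.3% of all) and 8, 7 and 14 (34.9, 27.6 and 78% of all) over whole regions. Without KO H3K27ac replicate 2, which has 8.57 M fragments, 7 of 31 regions were lost (37.3% of all) and 27 of 71 gained (55.9%).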
